A study of Mus musculus with 18 samples.

Results

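Quadriceps of mice injected with prednisone every day was compared with quadriceps of mice injected with vehicle every day. The comparison covered 12246 of the 33641 gene symbols in the deposited table, those at 1 TPM or more in at least 3 of the 9 muscle libraries (TPM, a transcript level per length as a share of a fixed library total), and used 6 of the series' 18 libraries. The series measured polyadenylated RNA of muscle and white fat in obese male DBA/2J wild-type mice, about 20 weeks of age by the labels, which do not say whether at the first injection. All mice, vehicle mice included, ate a high-fat diet for 12 weeks before the first injection and for the 12 weeks of injections, together longer than that age, so it cannot be the age at collection if these times are exact. The daily group (3 muscle libraries) received 1 mg/kg prednisone into the peritoneal cavity once a day, diluted in saline buffer from a stock in DMSO. The vehicle group (3 muscle libraries) was labelled as daily vehicle. Muscle was collected 24 hours after the final dose. A further 3 muscle libraries came from mice given the same dose once a week, and they entered the same fit to share its estimate of the spread. The labels number the libraries without tying each to a mouse, so p-values measure the spread between libraries, which may be technical.

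Prednisone is a prodrug that liver and other tissues convert to prednisolone, an agonist of the glucocorticoid receptor. The bound receptor moves to the nucleus and raises or lowers transcription of many genes, and in skeletal muscle sustained exposure is known for protein breakdown, insulin resistance and fibre atrophy. Muscle that is being repaired or has lost its nerve supply re-expresses sarcomere proteins and acetylcholine receptor subunits of the embryo, under myogenic regulators such as Myog.

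Each muscle library carried the adult fast-fibre program: the myosin heavy chain gene Myh4 stood at 6304, 5171 and 5882 TPM in the vehicle libraries and at 5336, 6284 and 5755 TPM in the daily ones. RNA of other cells was present in all libraries, and its amount differed among the daily ones. The summed level of 18 adipocyte markers was 3868, 3133 and 3483 TPM in vehicle libraries 1 to 3 and 3794, 1577 and 2377 TPM in daily libraries 1 to 3. The summed level of 32 macrophage markers was 438, 605 and 502 TPM in vehicle and 1017, 608 and 758 TPM in daily libraries, and that of 23 endothelial markers was 1359 to 1621 TPM in vehicle and 1672, 895 and 1185 TPM in daily libraries. In all of these sums daily library 3 lay between the other daily libraries. Over 70 genes that differed more than 2-fold between daily libraries 1 and 2, daily library 3 lay between them for 91.4%, at a median of 0.362 of the way from library 2 to library 1 (interquartile range 0.326 to 0.422). For the vehicle and weekly groups the third library lay between the others for 69.0% of 29 and 80.8% of 26 such genes. Over 5384 genes the third library was the middle one for 42.3% (vehicle), 49.1% (weekly) and 55.8% (daily), where equal chances would give 33.3%. Whether the third libraries share RNA with the other libraries of their group was not tested. Counts over all genes are given with and without them, and list counts mostly with them only.

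At an adjusted p under 0.05 in limma, 1674 genes (13.7% of those tested) differed between daily and vehicle muscle: 234 were higher (1.91%) and 1440 lower (11.8%). The rises were fewer and larger, with a median log2 fold change of 0.60 against -0.33 for the falls, and 53 rises but 22 falls reached 2-fold. The weight of lower calls moved with the scale of the values, since TPM are shares of a fixed total. The median over all genes was -0.09 on the log2 scale. Transcripts of the mitochondrial genome together with near-identical nuclear copies took 32.7%, 35.5% and 35.7% of all TPM in vehicle libraries and 37.6%, 38.7% and 39.2% in daily libraries. With these left out and the rest rescaled to the same total, an alternative chosen after the data had been seen, the median over all genes was -0.02 and 853 genes were called, 289 higher (2.36%) and 564 lower (4.61%). With factors from a trimmed mean of log ratios (TMM), 813 genes were called, 367 higher (3.0%) and 446 lower (3.64%), and 676 genes were called on both scales, 230 higher and 446 lower. Lower calls made up 86.0% of the calls on deposited TPM, 66.1% without mitochondrial genes and copies and 54.9% with TMM. Leaving out the genes of the mitochondrial genome while keeping the copies moved the counts the other way, to 2029 calls, 212 higher and 1817 lower. Counts of falls are therefore given with those on the TMM scale. The counts of each list are to be read against the shares over all genes. These were 1.91% higher and 11.8% lower on deposited TPM, and 3.0% and 3.64% with TMM.

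Leaving out the third library of each group left 8 genes called (0.0653%): 1810049J17Rik, Gm7079, Myh3, Rps12l1, Rps27rt, Spp1, Tnni1 and Tnnt2. Of the gene lists described below, 3 of 10 embryonic sarcomere genes and 1 of 46 matrix genes stayed called. None of the endplate, macrophage, complex I, citric acid cycle or channel genes did. The fit then had fewer libraries, and 1967 genes had an unadjusted p under 0.05. All 234 genes called higher with all libraries kept a positive fold change, and 216 of them had an unadjusted p under 0.05, as did 1219 of the 1440 called lower. These genes were picked with a fit that held the same remaining libraries, so the agreement is largely built in and is no independent check. Leaving out daily library 3 alone left 532 calls, 88 higher (0.719%) and 444 lower (3.63%). Of the genes tested, 28 reached 1 TPM in no vehicle or weekly library, and 23 of these were among the 234 called higher; such genes entered the test only through the daily libraries. A further 91 reached 1 TPM in no daily library, of which 14 were called lower.

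**Figure D1:**
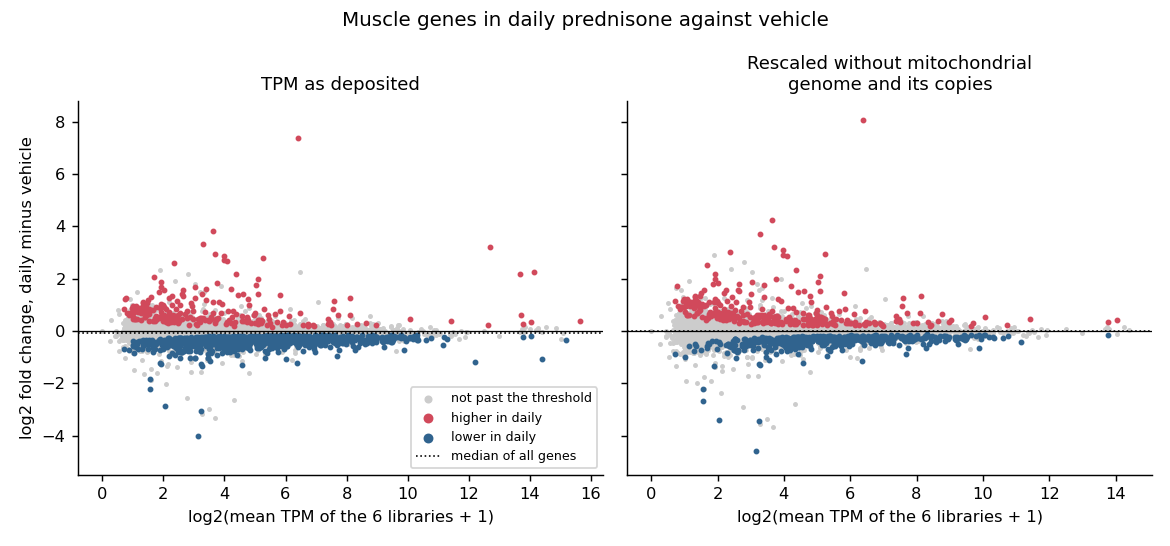
Log2 fold change of muscle genes (y) against their mean level in the 6 libraries (x, log2 scale of TPM + 1), on deposited TPM (left, 12246 genes) and after rescaling without mitochondrial transcripts and their copies (right, 12228 genes); colours mark genes past an adjusted p of 0.05. On the left 234 red and 1440 blue points and a median of -0.09 are drawn, on the right 289 red and 564 blue points and a median of -0.02.

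Sarcomere genes of the embryo and newborn were among the largest rises. Of 10 such genes, 8 rose and 1 fell against 1.91% and 11.8% of all genes, and their median log2 fold change was 2.34 against -0.09 over all genes. The same 8 were higher on the TMM scale. Myh3, the embryonic myosin heavy chain, stood at 0.147, 1.16 and 0.664 TPM in vehicle libraries and at 29.5, 16.6 and 20.5 TPM in daily libraries (log2 fold 3.82 ± 0.24, adjusted p = 0.00025). Parentheses give log2 fold changes, daily minus vehicle, with their standard error and adjusted p from limma. Tnnc1, the slow and cardiac troponin C, stood at 3.205, 4.07 and 3.15 TPM in vehicle and 38.6, 21.1 and 25.7 TPM in daily libraries (log2 fold 2.68 ± 0.18, adjusted p = 0.00026). No daily library of either gene came near a vehicle library, and daily library 1 was the highest. The thin-filament gene Actc1, cardiac alpha-actin, rose from 11.2, 13.3 and 12.99 TPM to 71.4, 39.04 and 51.4 TPM (log2 fold 1.99 ± 0.18, adjusted p = 0.001). Myl4, the embryonic light chain, rose from 4.85, 14.1 and 8.25 TPM to 84.1, 50.8 and 60.96 TPM (log2 fold 2.79 ± 0.30, adjusted p = 0.002). The member that fell, Nrap, encodes a scaffold of the growing myofibril and had 175, 205 and 184 TPM in vehicle and 158, 138 and 139 TPM in daily libraries (log2 fold -0.37 ± 0.082, adjusted p = 0.019, and 0.0502 with TMM).

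Adult fast-fibre genes differed far less than the embryonic list. Of 18 fast-fibre genes 2 rose and 1 fell, with a median of -0.03. With quantile normalization none rose and 2 fell, and without a level filter none rose. The rises were light chains of myosin, which are among the most abundant muscle transcripts: Mylpf went from 15732, 13794 and 15042 TPM to 19012, 18315 and 18440 TPM (log2 fold 0.33 ± 0.057, adjusted p = 0.0084). Myl1 went from 13442, 11783 and 12796 TPM to 14764, 15242 and 15041 TPM (log2 fold 0.25 ± 0.056, adjusted p = 0.021) and did not pass without vehicle library 2, daily library 2 or daily library 3. Mylk2, the kinase that phosphorylates the regulatory light chain, fell from 699, 619 and 640.2 TPM to 480.3, 539.6 and 497 TPM (log2 fold -0.37 ± 0.072, adjusted p = 0.012, and 0.062 with TMM). The fast heavy chain Myh1 did not pass the test on deposited TPM, with overlapping groups and a log2 fold change of 0.22 ± 0.086, and it had an adjusted p of 0.049 with TMM. Of 11 slow-fibre genes 3 rose and none fell, against 1.91% and 11.8% of all genes, with a median of 0.25. Tnnc1 and Tnni1, the slow troponin I (log2 fold 2.87), were counted with the embryonic genes and not in this list. Tnnt1, the slow troponin T, had 5.004, 4.64 and 4.996 TPM in vehicle and 25.03, 16.03 and 19.2 TPM in daily libraries (log2 fold 1.82 ± 0.24, adjusted p = 0.0033). Casq2, the slow and cardiac calsequestrin, rose from 7.68, 8.33 and 9.67 TPM to 27.8, 12.9 and 17.6 TPM (log2 fold 1.04 ± 0.22, adjusted p = 0.016). The stretch-responsive gene Ankrd2 rose from 10.5, 26.7 and 18.1 TPM to 30.8, 39.1 and 37.7 TPM (log2 fold 1.01 ± 0.26, adjusted p = 0.035). The slow heavy chain Myh7 was below the level filter.

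Among 19 myogenic regulators 1 rose and 4 fell (1 and 1 with TMM), against 1.91% and 11.8% of all genes. The riser was Myog, the factor of terminal differentiation, with 6.82, 9.03 and 8.37 TPM in vehicle and 31.3, 22.6 and 26.2 TPM in daily libraries (log2 fold 1.61 ± 0.12, adjusted p = 0.00038); the lowest daily library exceeded the highest vehicle library more than 2-fold. Myod1, the factor that commits cells to the lineage, did not pass (-0.32 ± 0.15, libraries overlapping), nor did the adult-fibre factor Myf6 (-0.12 ± 0.074). Vgll2, a muscle cofactor of TEAD proteins, fell from 60.05, 73.7 and 57.5 TPM to 41.4, 38.1 and 39.1 TPM (log2 fold -0.67 ± 0.088, adjusted p = 0.0034) and passed on the TMM scale too. Mef2d and Id3 fell by less (-0.40 and -0.37 on the log2 scale) and did not pass with TMM (adjusted p = 0.056 and 0.1).

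Of 14 genes of myoblast fusion, 3 rose and 1 fell, against 1.91% and 11.8% of all genes. The rises included both membrane proteins that drive fusion. Tmem8c, also called myomaker, stood at 0.299, 1.25 and 0.727 TPM in vehicle and 22.1, 11.5 and 16.9 TPM in daily libraries (log2 fold 3.33 ± 0.24, adjusted p = 0.00029). Gm7325, also called myomixer, stood at 0.608, 0.614 and 0.170 TPM and 7.58, 7.46 and 8.45 TPM (log2 fold 2.61 ± 0.26, adjusted p = 0.0018), and here the 3 daily libraries lay close together. No vehicle library of Gm7325 reached 1 TPM, so the vehicle group did not carry it past the level filter. Myof, a ferlin of membrane repair and fusion, went from 0.988, 1.198 and 1.18 TPM to 2.797, 1.72 and 1.88 TPM (log2 fold 0.55 ± 0.13, adjusted p = 0.027). The faller, Rac1, is a GTPase used by many cell types and changed little (-0.19 ± 0.051, adjusted p = 0.039, and 0.28 with TMM). None of 12 satellite cell markers passed in either direction, and Pax7, the defining factor of these stem cells, was below the level filter.

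At the neuromuscular endplate 4 of 16 genes rose and none fell, against 1.91% and 11.8% of all genes, with a median of 0.12. With a filter of 5 TPM 2 rose and 1 fell. Chrng, which reached 1 TPM in no vehicle or weekly library and so entered the test through the daily libraries alone, encodes the fetal gamma subunit of the acetylcholine receptor. It stood at 0.0600, 0.295 and 0.291 TPM in vehicle and 6.28, 2.59 and 3.85 TPM in daily libraries (log2 fold 2.05 ± 0.23, adjusted p = 0.0021). Chrna1, the alpha subunit, went from 4.33, 3.92 and 4.27 TPM to 10.1, 8.34 and 8.88 TPM (log2 fold 0.96 ± 0.11, adjusted p = 0.0021). Chrnd, the delta subunit, went from 1.29, 1.07 and 1.28 TPM to 3.38, 2.004 and 3.18 TPM (log2 fold 0.78 ± 0.16, adjusted p = 0.014). Ncam1, an adhesion molecule that muscle re-expresses after loss of its nerve, went from 5.81, 2.44 and 4.92 TPM to 14.02, 13.7 and 10.6 TPM (log2 fold 1.40 ± 0.40, adjusted p = 0.047) but did not pass with TMM (adjusted p = 0.055). The adult epsilon subunit Chrne had 25.7, 23.03 and 23.5 TPM in vehicle and 28.7, 30.2 and 29.7 TPM in daily libraries. It did not pass on deposited TPM (0.28 ± 0.10, adjusted p = 0.089), though the groups did not overlap, and it passed with TMM (adjusted p = 0.047). Over all 12246 genes, 737 had every daily library above every vehicle library.

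Myogenic factors of the Myog family bind E-boxes, and the promoters of 4 rising genes are shown here, chosen for holding the E-box CAGCTG. The sequences are the 250 bases before the RefSeq start on GRCm38.p6, read 5′ to 3′ on the gene's strand, with that E-box in capitals (a palindrome, so both strands are covered).
Chrna1, chr2:73580339-73580588, minus strand: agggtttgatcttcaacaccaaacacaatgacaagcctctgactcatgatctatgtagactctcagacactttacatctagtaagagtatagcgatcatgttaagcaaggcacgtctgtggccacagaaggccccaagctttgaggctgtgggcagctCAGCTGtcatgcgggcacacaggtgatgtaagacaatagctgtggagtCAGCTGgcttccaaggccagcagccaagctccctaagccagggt
Chrng, chr1:87205561-87205810, plus strand: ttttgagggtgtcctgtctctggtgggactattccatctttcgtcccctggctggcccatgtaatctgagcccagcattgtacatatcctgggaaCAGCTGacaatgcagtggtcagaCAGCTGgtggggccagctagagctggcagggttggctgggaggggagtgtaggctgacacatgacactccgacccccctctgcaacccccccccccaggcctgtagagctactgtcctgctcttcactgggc
Tnnt2, chr1:135836084-135836333, plus strand: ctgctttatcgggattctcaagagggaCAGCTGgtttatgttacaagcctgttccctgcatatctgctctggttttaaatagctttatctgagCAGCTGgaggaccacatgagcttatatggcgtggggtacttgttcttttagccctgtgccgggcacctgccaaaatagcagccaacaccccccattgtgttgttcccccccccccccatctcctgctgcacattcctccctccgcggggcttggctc
Tnni1, chr1:135799171-135799420, plus strand: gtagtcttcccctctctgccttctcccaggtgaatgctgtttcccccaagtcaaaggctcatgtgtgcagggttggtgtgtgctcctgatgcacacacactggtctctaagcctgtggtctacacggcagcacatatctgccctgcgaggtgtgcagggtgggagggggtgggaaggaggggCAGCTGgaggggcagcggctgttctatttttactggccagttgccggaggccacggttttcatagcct
The windows of Chrna1, Chrng and Tnnt2 held 2 such E-boxes each and that of Tnni1 held 1. Those of Chrna1 began 92 and 44 bases before the start, and those of Chrng 155 and 132 bases before it. For Tnnt2 and Tnni1, which have 2 listed starts each, the window with more E-boxes is shown. CAGCTG was present in 13.0% of all 32851 promoter windows. Counting genes, it was present for 14.7% of the 8997 tested genes with a window, 20.6% of 170 genes called higher and 14.6% of 1075 called lower. Of the 8 embryonic sarcomere genes that rose, 2 had it. These are letter matches and no evidence of binding.

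**Figure D2:**
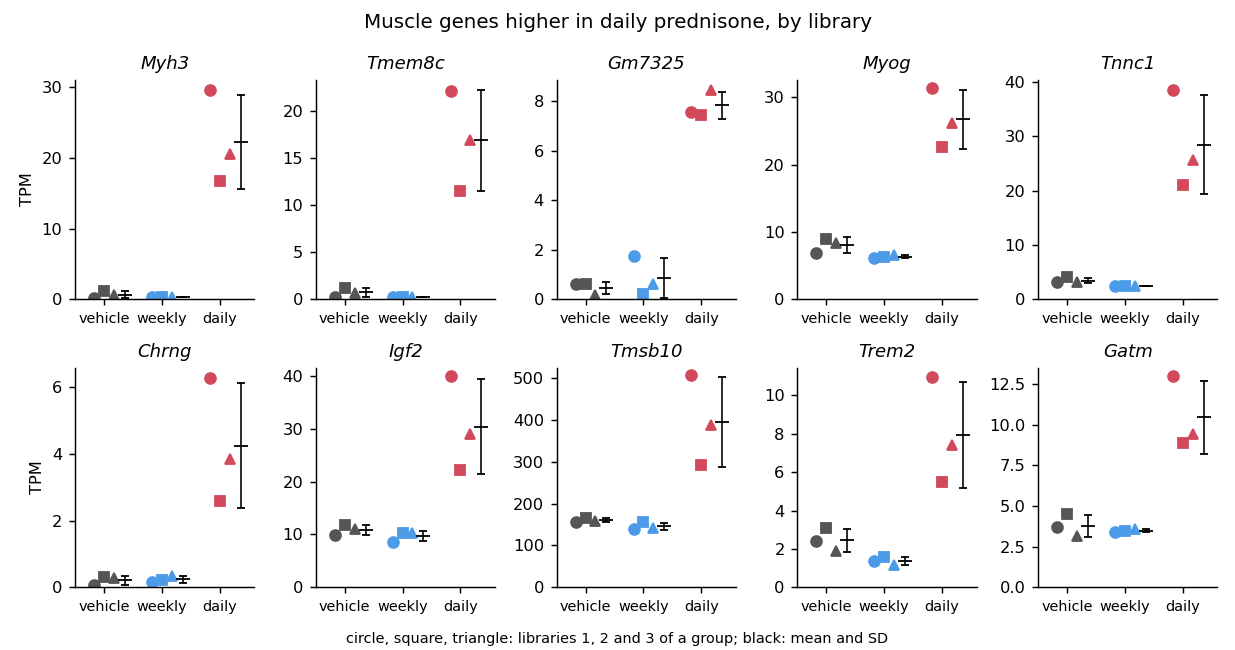
TPM of 10 genes in each muscle library (y, linear scale from 0; circles, squares and triangles are libraries 1, 2 and 3 of vehicle, weekly and daily groups, black bars the mean and SD of 3). All daily points lie above all vehicle points in each panel, and daily library 1 is the highest for every gene except Gm7325. Myh3, Tmem8c, Myog and Tnnc1 were named by a rule that requires groups without overlap, so their separation was set by that choice.

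Genes of macrophages rose together with the immature muscle genes. Of 29 measured macrophage markers 10 rose and none fell (background 1.91% and 11.8%), and the median was 0.47. Ctss, the lysosomal protease cathepsin S, stood at 11.4, 16.3 and 14.1 TPM in vehicle and 66.1, 37.2 and 46.7 TPM in daily libraries (log2 fold 1.75 ± 0.19, adjusted p = 0.002). Mpeg1, the pore-forming perforin-2 of phagocytes, went from 1.68, 2.91 and 1.796 TPM to 11.4, 6.28 and 7.71 TPM (log2 fold 1.58 ± 0.21, adjusted p = 0.0034). Trem2, a lipid-sensing receptor of macrophages, went from 2.39, 3.09 and 1.895 TPM to 10.96, 5.48 and 7.397 TPM (log2 fold 1.34 ± 0.21, adjusted p = 0.0061). The other rises were Lyz2, Ms4a7, Ms4a6c, Lgals3, Cd68, Cybb and Ccr2, while the general markers Adgre1, Csf1r and Cd163 were among the 19 that did not pass. In these bulk libraries, more cells of a type and more RNA per cell cannot be told apart. Mmp12, a macrophage elastase, rose from 2.45, 2.04 and 2.904 TPM to 20.996, 4.96 and 9.65 TPM (log2 fold 1.70 ± 0.37, adjusted p = 0.018), with daily library 1 the highest and daily library 2 the lowest.

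Matrix genes gave a partial rise. Of 46 measured, 6 rose and none fell, with a median of 0.05, against 1.91% and 11.8% of all genes and a median of -0.09. Spp1, the secreted phosphoprotein osteopontin, stood at 2.45, 1.299 and 2.09 TPM in vehicle and 27.6, 17.04 and 20.98 TPM in daily libraries (log2 fold 2.95 ± 0.18, adjusted p = 0.00025). Postn, periostin of healing tissue, went from 4.92, 7.07 and 6.68 TPM to 47.6, 21.9 and 30.6 TPM (log2 fold 2.20 ± 0.26, adjusted p = 0.0027). Timp1, an inhibitor of metalloproteinases, went from 1.05, 2.19 and 1.59 TPM to 8.82, 3.31 and 4.54 TPM (log2 fold 1.27 ± 0.29, adjusted p = 0.021). Of 18 collagen genes, Col3a1 (0.86 ± 0.19) and Col8a1 (0.58 ± 0.15) rose and none fell. Acta2, smooth-muscle actin, was the single riser of 13 mural cell markers (0.82 ± 0.15), and none of 23 endothelial markers passed.

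Of 27 tubulin and cytoskeleton genes 5 rose and 1 fell (8 and none with TMM). Tmsb10, an actin-sequestering thymosin, stood at 157, 165 and 158 TPM in vehicle and 506, 291 and 388 TPM in daily libraries (log2 fold 1.26 ± 0.16, adjusted p = 0.0031). The tubulins Tubb6 and Tubb2b rose by 1.43 ± 0.19 and 1.40 ± 0.15 on the log2 scale, and Nes, the intermediate filament nestin of young fibres, by 0.72 ± 0.10. Of 25 growth and myostatin genes 1 rose and 5 fell (1 and 2 with TMM), against 1.91% and 11.8% of all genes. The riser, Igf2, is a fetal growth factor made by differentiating myoblasts and went from 9.92, 11.7 and 10.97 TPM to 39.97, 22.2 and 29.03 TPM (log2 fold 1.37 ± 0.18, adjusted p = 0.0033). Of 33 listed proliferation genes 22 were measured: 6 rose and none fell, against 1.91% and 11.8% of all genes, and 16 did not pass. The defining marker Mki67 was below the level filter. Among the rises, Rrm2 and Birc5 reached 1 TPM in no vehicle library, so the vehicle group did not carry them past that filter. Rrm2, a subunit of ribonucleotide reductase, stayed low, at 0.271, 0.465 and 0.402 TPM in vehicle and 1.89, 1.35 and 1.38 TPM in daily libraries (log2 fold 0.88 ± 0.12, adjusted p = 0.004), and the mitotic survivin gene Birc5 at 0.562, 0.619 and 0.396 TPM and 1.62, 1.24 and 1.51 TPM (log2 fold 0.69 ± 0.11, adjusted p = 0.0074). Of these 6, Cdkn1a and Cdkn1c encode inhibitors of the cell cycle: Cdkn1a went from 26.8, 20.1 and 23.2 TPM to 42.2, 34.9 and 38.1 TPM (log2 fold 0.70 ± 0.10, adjusted p = 0.0046). Cdkn1c rose by 0.59 ± 0.11. Gatm, which makes the creatine precursor guanidinoacetate, went from 3.700, 4.52 and 3.16 TPM to 13.02, 8.91 and 9.43 TPM (log2 fold 1.25 ± 0.14, adjusted p = 0.0023). Gamt, the next enzyme, rose by 0.47 ± 0.11. The creatine importer Slc6a8 fell by 0.26 ± 0.057, not past the threshold with TMM (adjusted p = 0.096).

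Some genes of sarcomere stress and of protein folding rose. Of 25 stress genes 7 rose and none fell, among them the small heat shock genes Cryab, from 771, 1045 and 906 TPM to 1127, 1308 and 1268 TPM (log2 fold 0.45 ± 0.11, adjusted p = 0.026), and Hspb8 (0.26 ± 0.049). Sln, the SERCA inhibitor sarcolipin, went from 0.949, 0.678 and 0.706 TPM to 3.38, 2.52 and 2.47 TPM (log2 fold 1.09 ± 0.23, adjusted p = 0.016). Its vehicle libraries were all under 1 TPM. Tnfrsf12a, the receptor of the cytokine TWEAK, which rises in denervated muscle, was counted with chemokine and cytokine genes. Of 23 such genes 2 rose and none fell, with a median of 0.06. Tnfrsf12a went from 39.3, 42.8 and 41.98 TPM to 70.8, 69.5 and 71.5 TPM (log2 fold 0.76 ± 0.10, adjusted p = 0.0033), with the 3 daily libraries close together. The unfolded protein response gave 4 rises and no fall among 23 genes, against 1.91% and 11.8% of all genes. Its median was -0.05, with 11 fold changes above 0 and 12 below. The rises were the chaperones Hsp90b1 (0.33 ± 0.049) and Calr (0.21 ± 0.053) and the disulfide isomerases Pdia6 (0.29 ± 0.051) and Pdia3 (0.43 ± 0.086). Of 29 interferon-response genes 4 rose, among them Irf7 (0.54 ± 0.11), Xaf1 (0.51 ± 0.12) and Ifit1 (0.46 ± 0.11), and 1, Irgm2, fell (-0.34 ± 0.073, adjusted p = 0.067 with TMM).

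The daily libraries kept an order among these rises. Of the 234 genes called higher, daily library 1 was the highest daily library for 154, daily library 2 the lowest for 143 and daily library 3 the middle one for 161. Over 5384 genes daily library 3 was the middle one for 55.8%, daily library 1 for 20.4% and daily library 2 for 23.8%. How often daily libraries 1 and 2 were the highest or lowest over these genes was not computed. Of the 1440 genes called lower, daily library 1 was the highest for 617, daily library 2 the lowest for 375 and daily library 3 the middle one for 682. Daily library 1 also had the highest summed levels of macrophage, adipocyte and endothelial markers and daily library 2 the lowest. Macrophage markers are among the 234 genes, so the 2 orders are not independent, and both rest on 3 libraries. The part of RNA of other cells in the rises was not tested.

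**Figure D3:**
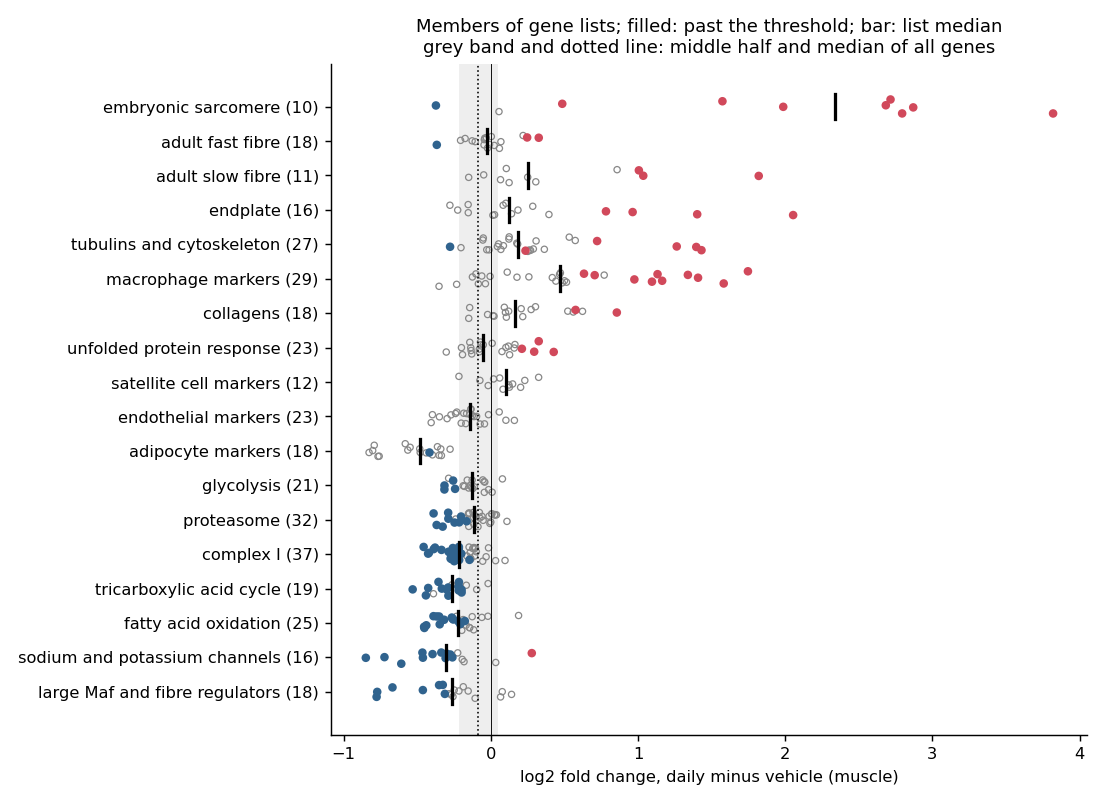
Log2 fold change (x) of the members of 18 gene lists (y, number measured in brackets), one point per gene, filled where past an adjusted p of 0.05, red higher and blue lower in daily; black bars are list medians and the grey band and dotted line the interquartile range and median of all 12246 genes. Embryonic sarcomere genes reach a median of 2.34 and macrophage markers 0.47, while complex I, citric acid cycle and channel genes have medians of -0.22, -0.26 and -0.30.

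Falls were smaller than the rises. Mafa, a large Maf transcription factor of fast type 2B fibres, stood at 52.2, 50.3 and 48.2 TPM in vehicle and 30.3, 29.3 and 27.3 TPM in daily libraries (log2 fold -0.78 ± 0.057, adjusted p = 0.00031), and it passed with each single library left out and with TMM (-0.68, adjusted p = 0.00021). Of 18 large Maf and fibre regulators none rose and 7 fell (4 with TMM), with a median of -0.26. Over all genes 1.91% rose and 11.8% fell (3.64% with TMM), with a median of -0.09. Hdac4, a histone deacetylase that represses Mef2 targets, fell from 14.1, 14.1 and 14.9 TPM to 8.65, 7.33 and 8.07 TPM (log2 fold -0.77 ± 0.11, adjusted p = 0.0045). Its relative Hdac5 fell by 0.33 ± 0.062 (adjusted p = 0.058 with TMM), and Sox6, a repressor of slow genes, by 0.46 ± 0.094. Maf fell by 0.35 ± 0.061, with an adjusted p of 0.053 on the TMM scale.

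Most ion channel genes fell: of 16 channel, pump and ion transporter genes of the muscle membrane 11 fell and 1 rose (background 11.8% and 1.91%), and 6 fell and 1 rose with TMM. Kcna7, a voltage-gated potassium channel of muscle, stood at 51.4, 59.1 and 50.1 TPM in vehicle and 30.7, 29.4 and 27.5 TPM in daily libraries (log2 fold -0.85 ± 0.086, adjusted p = 0.0019). Scn4a, the sodium channel that carries the muscle action potential, fell from 114, 94.4 and 99.5 TPM to 62.3, 73.4 and 64.997 TPM (log2 fold -0.61 ± 0.12, adjusted p = 0.012), with its partner subunit Scn4b (-0.46 ± 0.059). The chloride channel Clcn1 fell by 0.30 ± 0.067 but did not pass with TMM (adjusted p = 0.11). Kcnj2, the inward rectifier that sets the resting potential, rose (0.28 ± 0.057). Of 23 calcium-handling genes 7 fell and 3 rose (background 11.8% and 1.91%; 3 and 3 with TMM). Among the falls were Ryr1, the calcium release channel, which went from 182, 163 and 168 TPM to 130.4, 127 and 119 TPM (log2 fold -0.45 ± 0.065, adjusted p = 0.0044), and Cacnb1, a subunit of its voltage sensor (-0.42 ± 0.050).

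Further falls were those of single genes with varied roles and of the dystrophin list. Nos1, the neuronal nitric oxide synthase anchored to the dystrophin complex, stood at 6.24, 6.79 and 6.97 TPM in vehicle and 3.37, 3.69 and 3.11 TPM in daily libraries (log2 fold -0.80 ± 0.10, adjusted p = 0.0033). Egflam, the matrix ligand pikachurin of dystroglycan, fell from 14.9, 20.1 and 15.7 TPM to 8.75, 8.53 and 7.799 TPM (log2 fold -0.93 ± 0.10, adjusted p = 0.0021). Of 20 genes of the dystrophin complex and its neighbours 7 fell and none rose (4 and none with TMM), including Dtna, dystrobrevin alpha (-0.52 ± 0.070), and Synm, synemin (-0.35 ± 0.060). Mylk4, a myosin kinase family member abundant in muscle, fell from 211, 334 and 272 TPM to 130.4, 147 and 132 TPM (log2 fold -0.97 ± 0.18, adjusted p = 0.011). Pitpnc1, a lipid transfer protein, fell by 0.80 ± 0.095, and the phosphatase Ptpn3 by 0.83 ± 0.14. Among 27 Z-disc and titin genes 8 fell and 1 rose (background 11.8% and 1.91%; 3 and 1 with TMM). Cmya5, myospryn, stood at 183, 183 and 184 TPM in vehicle and 122, 132 and 121 TPM in daily libraries (log2 fold -0.55 ± 0.066, adjusted p = 0.0028).

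Of 24 insulin and glucose uptake genes 7 fell and none rose, against 11.8% and 1.91% of all genes. With TMM 3 fell, against 3.64% of all genes. Irs1, the insulin receptor substrate, had 6.46, 7.19 and 6.61 TPM in vehicle and 2.29, 4.82 and 3.698 TPM in daily libraries (log2 fold -0.79 ± 0.17, adjusted p = 0.018; adjusted p = 0.052 with TMM). Tbc1d1, which controls release of glucose transporters to the membrane, fell from 20.2, 31.02 and 21.8 TPM to 15.3, 12.6 and 13.5 TPM (log2 fold -0.76 ± 0.14, adjusted p = 0.01). Akt2, the insulin-responsive kinase, fell by 0.31 ± 0.047. Gys1, muscle glycogen synthase, fell from 136, 160.3 and 139.8 TPM to 96.6, 101 and 95.8 TPM (log2 fold -0.56 ± 0.067, adjusted p = 0.0027). Of 18 glycogen genes 6 fell and 1 rose (3 and 1 with TMM), against 11.8% and 1.91% of all genes. Socs2, a feedback inhibitor that growth hormone induces through Stat5, fell from 8.81, 16.1 and 12.5 TPM to 4.296, 4.88 and 4.16 TPM (log2 fold -1.27 ± 0.20, adjusted p = 0.0065). Stat5b itself fell from 57.2, 51.8 and 49.999 TPM to 36.3, 37.7 and 34.1 TPM (log2 fold -0.54 ± 0.066, adjusted p = 0.0028) and Stat5a by 0.38 ± 0.074. Igfbp5, a binding protein of insulin-like growth factors, fell from 307, 231 and 268 TPM to 165, 157 and 157 TPM (log2 fold -0.74 ± 0.10, adjusted p = 0.004).

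**Figure D4:**
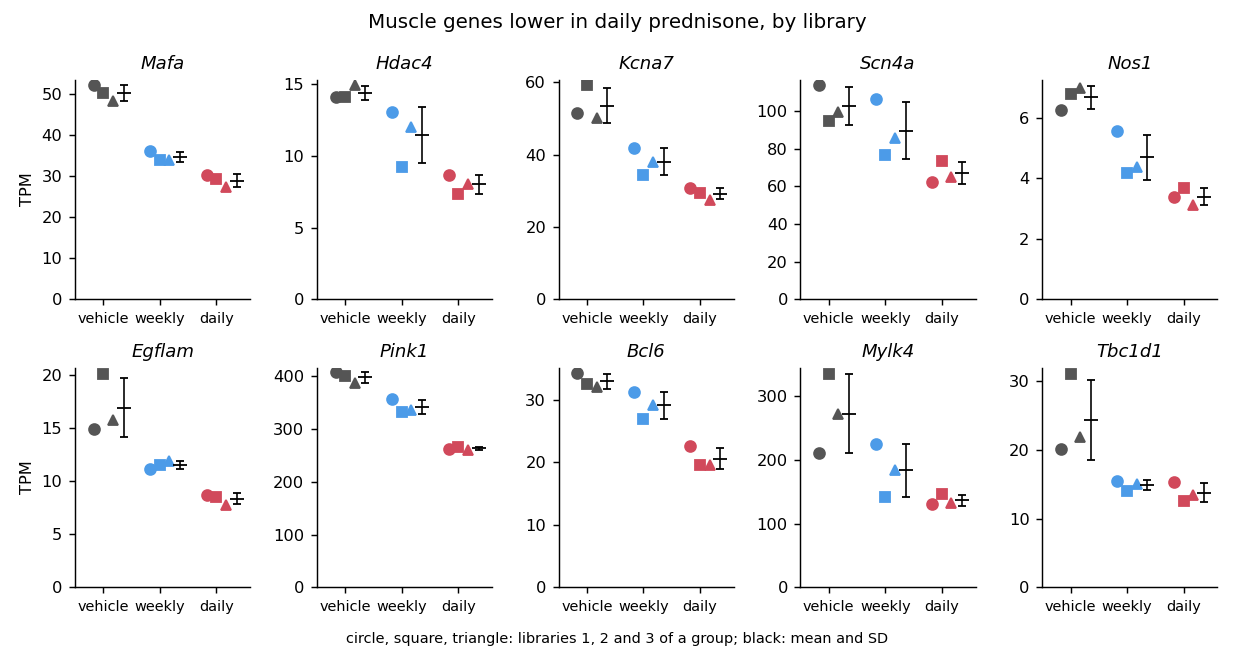
TPM of 10 genes in each muscle library (y, linear scale from 0; circles, squares and triangles are libraries 1, 2 and 3 of vehicle, weekly and daily groups, black bars the mean and SD of 3). All daily points lie below all vehicle points in each panel. Mafa, Hdac4, Kcna7, Nos1, Egflam and Mylk4 were named by a rule that requires groups without overlap, so their separation was set by that choice. The mean of the weekly libraries lies between the other means in all 10 panels.

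Many nuclear genes of energy metabolism fell by small amounts. Of 37 complex I genes 21 fell and none rose, with a median of -0.22, and 22 of 42 genes of complexes II to V fell and 1 rose, with a median of -0.19. Over all genes 11.8% were lower and 1.91% higher, with a median of -0.09. The counts depended on the scale: with TMM 9 and 8 fell and 0 and 3 rose, with medians of -0.11 and -0.09. The TMM shares over all genes were 3.64% lower and 3.0% higher. Without mitochondrial transcripts and copies 10 and 12 fell and 0 and 2 rose. Ndufv1, the flavin subunit of complex I, stood at 314, 332 and 313 TPM in vehicle and 249, 249.5 and 238 TPM in daily libraries (log2 fold -0.38 ± 0.047, adjusted p = 0.0031). Sdha, of complex II, fell from 336, 355 and 341 TPM to 271, 272 and 263 TPM (log2 fold -0.36 ± 0.040, adjusted p = 0.0023). Cox6a2, the muscle form of a complex IV subunit, fell from 1826, 1765 and 1671 TPM to 1344, 1378 and 1363 TPM (log2 fold -0.36 ± 0.044, adjusted p = 0.0028). The groups did not overlap in any of these, and the falls were small beside the rises above. Over all 12246 genes, every daily library lay below every vehicle library for 3402 and above for 737.

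The citric acid cycle had the lowest median of these metabolic lists, at -0.26, with 14 of 19 genes lower and none higher (7 lower with TMM). Over all genes 11.8% were lower and 1.91% higher (3.64% and 3.0% with TMM), with a median of -0.09 on deposited TPM. Ogdh, of the oxoglutarate dehydrogenase complex, fell from 254, 256 and 243 TPM to 181, 193 and 185 TPM (log2 fold -0.43 ± 0.047, adjusted p = 0.0021). Idh2, the mitochondrial NADP enzyme, fell by 0.53 ± 0.11, and its daily libraries spread from 58.8 to 85.1 TPM. Of 25 fatty acid oxidation genes 14 fell and none rose (7 with TMM), among them Acadm, medium-chain acyl-CoA dehydrogenase, from 239, 249.6 and 242 TPM to 194, 175 and 170.0 TPM (log2 fold -0.44 ± 0.055, adjusted p = 0.0031). Branched-chain amino acid breakdown gave 11 falls among 22 genes (4 with TMM), among them Bckdha, a subunit of the rate-limiting dehydrogenase (-0.43 ± 0.058), its kinase Bckdk (-0.53 ± 0.062) and Ivd, of leucine breakdown (-0.57 ± 0.086). Pdk2, a kinase that shuts off pyruvate dehydrogenase, fell from 276, 263 and 256 TPM to 195, 194 and 194 TPM (log2 fold -0.44 ± 0.046, adjusted p = 0.002). Pdpr, which restrains the phosphatase of that complex, fell from 19.4, 22.2 and 20.95 TPM to 10.9, 12.95 and 10.5 TPM (log2 fold -0.82 ± 0.14, adjusted p = 0.0075). Of 21 glycolysis genes 4 fell, close to the background, and none passed with TMM. Among the most abundant transcripts, Aldoa fell from 16265, 14964 and 14589 TPM to 12636, 13209 and 12834 TPM and the creatine kinase gene Ckm from 19127, 17707 and 17528 TPM to 15641, 15823 and 15534 TPM, and neither passed with TMM (adjusted p = 0.17 and 0.23).

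Of 31 genes of mitochondrial import and dynamics 11 fell and none rose (4 with TMM). Pink1, counted with the autophagy genes, is the kinase that marks damaged mitochondria. It stood at 408, 401 and 387 TPM in vehicle and 262, 267 and 261 TPM in daily libraries (log2 fold -0.60 ± 0.042, adjusted p = 0.00029), passed with TMM (-0.50, adjusted p = 0.00067) and passed with any library left out. Mfn2, the fusion protein mitofusin 2, fell from 108, 112 and 107 TPM to 78.98, 81.1 and 79.3 TPM (log2 fold -0.45 ± 0.059, adjusted p = 0.0034). Tomm20, an import receptor, fell by 0.53 ± 0.072 and Sod2, the matrix superoxide dismutase, by 0.39 ± 0.045. Of 20 regulators of mitochondrial genes 4 fell (background 11.8%; 2 with TMM), among them Rxra (-0.43 ± 0.052) and Esrra (-0.34 ± 0.057). Of 32 lipid genes 9 fell and 1 rose (6 and 1 with TMM). Gpam, which starts triglyceride synthesis, went from 39.6, 45.1 and 40.9 TPM to 26.9, 27.9 and 25.1 TPM (log2 fold -0.63 ± 0.11, adjusted p = 0.0074). Slc27a1, a fatty acid transporter, fell by 0.56 ± 0.079 and Acacb, the muscle acetyl-CoA carboxylase, by 0.45 ± 0.065.

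All 18 fat cell markers had negative fold changes, with a median of -0.48, and 17 did not pass. Their sum in daily library 1 lay within the vehicle range. The 1 that passed was the lipase gene Pnpla2 (-0.42 ± 0.080), which muscle fibres also express. Adipoq, adiponectin, had 113, 89.3 and 101 TPM in vehicle and 119.7, 40.5 and 65.8 TPM in daily libraries (-0.55 ± 0.31, adjusted p = 0.28). Plin1, the droplet coat of fat cells, had 89.8, 58.2 and 66.8 TPM and 67.8, 24.6 and 38.8 TPM (-0.79 ± 0.31, adjusted p = 0.12). The groups overlapped in both through daily library 1. Retnla, a resistin-like protein of fat tissue and macrophages, fell from 164, 159 and 145 TPM to 131, 61.3 and 84.97 TPM (log2 fold -0.82 ± 0.21, adjusted p = 0.035, and 0.064 with TMM) and moved across the daily libraries with those markers. Of the genes of mast cell granules, Tpsb2 fell from 9.87, 9.77 and 8.89 TPM to 6.16, 4.897 and 4.59 TPM (log2 fold -0.76 ± 0.11, adjusted p = 0.004). Mcpt4 fell from 10.1, 11.9 and 9.67 TPM to 6.48, 5.62 and 6.28 TPM (log2 fold -0.70 ± 0.11, adjusted p = 0.0067), as did Cpa3 (-0.55 ± 0.12, adjusted p = 0.051 with TMM). Thus 3 of 6 measured neutrophil and mast cell markers fell (2 with TMM), against 11.8% of all genes (3.64% with TMM).

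Of 25 atrophy-related ubiquitin ligases and FoxO factors 1 rose and 7 fell (1 and 5 with TMM), with a median of -0.15. The shares over all genes were 1.91% and 11.8% (3.0% and 3.64% with TMM). The riser, Trim63, the muscle ligase MuRF1, stood at 133, 145 and 137 TPM in vehicle and 204, 184 and 188 TPM in daily libraries (log2 fold 0.47 ± 0.052, adjusted p = 0.0021). Foxo4 fell from 50.1, 53.96 and 51.3 TPM to 36.2, 41.1 and 39.7 TPM (log2 fold -0.40 ± 0.061, adjusted p = 0.0054), Fbxo31 by 0.59 ± 0.063, and Foxo1 did not pass (-0.28 ± 0.083, adjusted p = 0.053). Of 32 proteasome genes 9 fell and none rose (5 and 1 with TMM), for example Psmb5, the chymotrypsin-like subunit (-0.37 ± 0.056). Of 29 autophagy genes 8 fell and none rose (2 with TMM), among them Ulk1, the initiating kinase (-0.40 ± 0.074). The proteasome and autophagy counts stand against the same shares of all genes.

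Of 35 translation factors 9 fell and none rose (4 and 1 with TMM), against 11.8% and 1.91% of all genes (3.64% and 3.0% with TMM). Eef1a2, the muscle elongation factor, fell from 845, 797 and 799 TPM to 667, 651 and 627 TPM (log2 fold -0.33 ± 0.051, adjusted p = 0.0057). Ddit4l, an inhibitor of mTOR complex 1, fell from 211, 219 and 206 TPM to 121, 154 and 139 TPM (log2 fold -0.62 ± 0.094, adjusted p = 0.0054), as did Eif4ebp2, a brake on cap-dependent translation (-0.42 ± 0.058), and the amino acid importer Slc7a5 rose from 0.797, 0.924 and 0.842 TPM to 2.04, 1.97 and 2.02 TPM (log2 fold 0.70 ± 0.091, adjusted p = 0.0033). The vehicle libraries of Slc7a5 were all under 1 TPM. Of 52 cytosolic ribosomal protein genes 7 fell and 2 rose, close to the background in both directions, and the split changed with TMM to 1 fall and 5 rises. Many ribosomal protein genes have processed copies that can share reads: Rps12l1, a near copy of Rps12, was listed at 0 in all vehicle libraries and at 137, 154 and 207 TPM in the daily ones, and its assignment is uncertain.

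Of 27 known targets of the glucocorticoid receptor 3 rose and 4 fell 24 hours after the last dose (background 1.91% and 11.8%; 3 and 3 with TMM), with a median of -0.07 against -0.09 over all genes. Fkbp5, a receptor co-chaperone and a common marker of receptor activity, had 7.099, 7.29 and 7.12 TPM in vehicle and 8.92, 13.2 and 9.87 TPM in daily libraries (log2 fold 0.49 ± 0.12, adjusted p = 0.029). The groups did not overlap, as in this direction for 737 of all 12246 genes. The call was lost without any 1 vehicle library, without daily library 3, with no level filter and with only these groups in the fit. Mt2, a metallothionein named as 1 of the 3 that rose, went from 13.96, 18.6 and 12.4 TPM to 53.000, 24.4 and 36.4 TPM (log2 fold 1.24 ± 0.25, adjusted p = 0.015), with wide daily libraries, and its neighbour Mt1 did not pass (0.27 ± 0.12). Bcl6, a transcriptional repressor, fell from 34.3, 32.4 and 32.002 TPM to 22.5, 19.5 and 19.6 TPM (log2 fold -0.66 ± 0.075, adjusted p = 0.0023). Cebpb, a stress-responsive transcription factor, fell from 54.2, 61.6 and 52.02 TPM to 33.3, 36.01 and 36.3 TPM (log2 fold -0.65 ± 0.13, adjusted p = 0.013), and Pik3r1, a regulatory subunit of PI3 kinase, by 0.49 ± 0.094. Tsc22d3, the leucine zipper GILZ, did not pass (-0.13 ± 0.055, adjusted p = 0.15), nor did Klf15 (-0.14 ± 0.12, adjusted p = 0.5). Among 14 genes of the receptor and its partners 5 fell and 1 rose on deposited TPM. The receptor gene Nr3c1 had 15.8, 15.9 and 16.5 TPM in vehicle and 14.3, 12.8 and 12.8 TPM in daily libraries (log2 fold -0.26 ± 0.073, adjusted p = 0.048), and none of the 5 falls passed with TMM (adjusted p = 0.17 for Nr3c1). Of 18 clock genes 3 fell and none rose, against 11.8% and 1.91% of all genes, and 1 fell with TMM, against 3.64%. None of them fell with mitochondrial genes and copies left out.

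Genes of the mitochondrial genome and their nuclear copies gave the largest changes in TPM. For several genes the sign of the change depended on whether the TPM of near-identical copies in nuclear DNA were added. Reads were not examined, so how they were divided between genes and copies was not tested. Of the 13 protein-coding genes of the mitochondrial genome 2 rose and 3 fell, against 1.91% and 11.8% of all genes. mt-Co2, of cytochrome oxidase, stood at 28132, 36057 and 23678 TPM in vehicle and 15488, 13714 and 12523 TPM in daily libraries (log2 fold -1.06 ± 0.18, adjusted p = 0.0078). Gm28661, a nuclear copy identical to mt-Co2 over 681 bases, went the other way, from 6362, 2315 and 13949 TPM to 26264, 28114 and 30628 TPM. The sum of both was 34494, 38372 and 37627 TPM in vehicle and 41752, 41828 and 43152 TPM in daily libraries, a log2 difference of 0.20. The same opposition was seen for mt-Atp6 and Gm10925 (identical over 678 bases), for mt-Co3 and Gm28437 and for mt-Nd3 and Gm28438. With each copy added to its gene, an alternative chosen after seeing the data, 7 of the 13 genes were called higher and none lower, 12 of 13 fold changes were positive and the median was 0.14; mt-Co2 was then 0.20 (adjusted p = 0.026) and mt-Nd3 0.14 (adjusted p = 0.026). mt-Atp8, which overlaps mt-Atp6 and has no such copy in this set, rose from 39280, 44789 and 47566 TPM to 53997, 58831 and 58576 TPM (log2 fold 0.38 ± 0.074, adjusted p = 0.012). The copies took 4.17% to 6.87% of all TPM in vehicle, 7.49% to 10.4% in weekly and 9.71% to 11.7% in daily libraries. The mitochondrial sum with copies was as high in weekly libraries (37.6% to 39.6%) as in daily ones (37.6% to 39.2%).

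**Figure D5:**
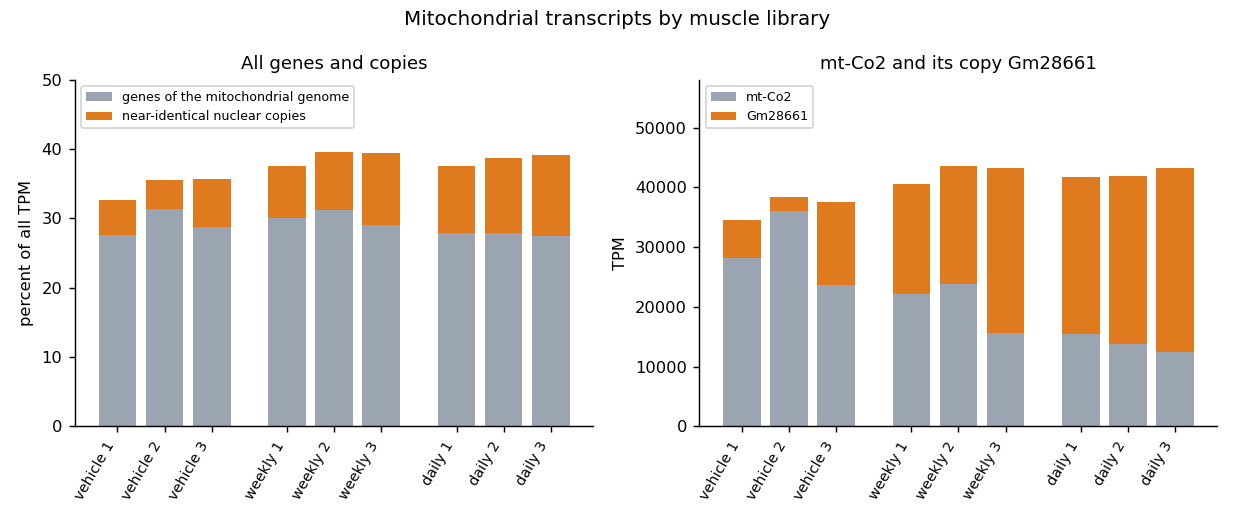
Left, percent of all TPM (y) taken by genes of the mitochondrial genome (grey) and their near-identical nuclear copies (orange) in each muscle library (x); right, TPM of mt-Co2 (grey) and its copy Gm28661 (orange). The grey part of the left panel stays between 27.5% and 31.3% while the copies grow from 4.17% to 11.7%, and on the right the total varies less than its division.

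At the level of single transcripts 1362 of 24128 (5.64%) differed, 225 higher and 1137 lower. Transcript usage, the level of a transcript relative to the other transcripts of its gene, differed for 63 of 18078 transcripts (0.348%) in 51 genes. When the third libraries were left out 10 transcripts were called, and of the 63 only Rab6a-203 was among them (adjusted p = 0.046 in limma). The other transcripts described here then did not pass: Spop-201 (0.12), Bckdk-203 (0.096) and the retained-intron and main transcripts of Dnajc19 (0.12 and 0.095). Spop, an adaptor of a ubiquitin ligase, showed the change at levels well above 0: Spop-201 stood at 58.5, 56.1 and 54.6 TPM in vehicle and 34.1, 32.1 and 33.4 TPM in daily libraries, from 84.0% to 57.0% of the gene (adjusted p = 0.00997), with the gene as a whole at -0.20. A retained-intron transcript of Bckdk, Bckdk-203, fell from 18.4, 14.8 and 10.9 TPM to at most 0.375 TPM. Rab6a-203, of a Golgi GTPase, was listed at or near 0 in vehicle and at 12.9, 10.4 and 9.01 TPM in daily libraries, 25.9% of the gene, whose total changed by 0.04. A retained-intron transcript of Dnajc19, a mitochondrial import cochaperone, rose from 1.66 TPM or less to at least 19.2 TPM. The main transcript of that gene fell from 95.8 ± 9.62 to 72.2 ± 4.94 TPM (SD, n = 3). For Bckdk, Rab6a and Dnajc19 the weekly means of these transcripts lay between those of the other groups. Of the 63 transcripts 19 were under 0.5 TPM in every library of one group, and such values near 0 can be failed estimates.

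The weekly libraries allow a test of whether daily injection differed from the same dose once a week. Between daily and weekly muscle 217 genes were called, 105 higher (0.857%) and 112 lower (0.915%) in daily. Called against both vehicle and weekly were 89 higher and 99 lower genes; these comparisons share the daily libraries. All 8 embryonic sarcomere genes that rose against vehicle were also higher than in weekly muscle: Myh3 was at 0.287, 0.335 and 0.304 TPM in weekly libraries (daily minus weekly 4.11 ± 0.24, adjusted p = 0.0001) and Myog at 6.14, 6.26 and 6.63 TPM (1.90 ± 0.12, adjusted p = 0.0001). Against weekly muscle 4 endplate genes were higher, among them Chrng (2.02 ± 0.23, adjusted p = 0.0035). So were 8 of the 10 macrophage markers that rose against vehicle, among them Ctss (2.08 ± 0.19, adjusted p = 0.0011). Falls past the threshold against weekly included Pink1, at 356, 333 and 336 TPM in weekly libraries (-0.37 ± 0.042, adjusted p = 0.0035), Bcl6 (-0.48 ± 0.075, adjusted p = 0.019), Stat5b (-0.42 ± 0.066, adjusted p = 0.019) and Hadha, of fatty acid oxidation (-0.37 ± 0.050, adjusted p = 0.0096). For other genes a difference between regimens was not detected. Trim63 was at 188, 184 and 188 TPM in weekly libraries, in the range of the daily ones (0.035 ± 0.052, adjusted p = 0.79), and Fkbp5 at 10.4, 12.4 and 11.3 TPM (-0.10 ± 0.12, adjusted p = 0.74). Mafa was at 36.1, 34.02 and 34.1 TPM, between vehicle and daily libraries (-0.26 ± 0.057, adjusted p = 0.063), and Socs2 at 5.61, 9.21 and 7.18 TPM (-0.59 ± 0.20, adjusted p = 0.18). Of 13 mitochondrial genes none was higher and 1 lower in daily than in weekly libraries.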

How the data were processed

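The authors deposited a table of transcript levels in TPM; per the submitters' processing notes Trimmomatic, HISAT2, kallisto and mm10 were used, with no version, role or order given. TPM keep no read totals: sequencing depth is unknown, and no counting interval is given. Here TPM of 105129 transcripts were summed per gene symbol, giving 33641 symbols, and genes with at least 1 TPM in 3 muscle libraries were tested. Values were analysed as log2(TPM + 1) with limma 3.58.1 in R 4.3.3 (trended empirical Bayes, all 9 muscle libraries, no block) and Benjamini-Hochberg adjustment over all 12246 genes at 0.05. Fold changes are on that log2 scale, which understates changes of low genes. SE is the standard error of the fold change. Folds are daily minus vehicle unless stated. TMM factors were computed from TPM with own code.

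Transcript usage was tested as the log2 level of a transcript minus that of the other transcripts of its gene. Of the transcript IDs, 99505 were in GENCODE M21 with the same version, which supplied transcript names; the annotation release used for the deposited table is not given in the sources used here. Copies of mitochondrial genes were found with BLAST 2.17.0 (at least 98% identity over 200 bases). Promoters came from RefSeq (GRCm38.p6). The fitting code was tested on simulated data. The comparison, 68 gene lists and genes named were chosen with earlier results of these data known, and the lists are given by counts and medians without a set test. Genes were named by rule: the 15 largest rises and falls among called genes with non-overlapping groups and a mean of 5 TPM or more (predicted genes left out), up to 4 called and 3 uncalled members of each list, any member of lists of at most 20, the 8 largest gains and losses in TPM, and the 10 usage changes of smallest p. Genes named outside it, such as Mt2, Spop and the remaining macrophage markers, were chosen after their values were seen. Alternatives covered scaling, pseudocount, level filter, libraries in the fit, replicate block, prior, weights, a minimum fold and leaving out libraries. Some genes that the rule covers are not reported here.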

Additional observations from a re-analysis of the deposited data

How the results depend on the processing

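Gene counts were recomputed under every alternative listed with the processing, and transcript and usage counts under a pseudocount of 0.1, a filter of 5 TPM, the block and left-out libraries; those that merge or drop mitochondrial copies were chosen after seeing the data. Against 1674 called genes (234 higher, 1440 lower), TMM gave 813 (367 and 446), quantile normalization 764 (373 and 391), array weights 5166 (876 and 4290), a minimum log2 fold change of 1 gave 75 (53 and 22), the third libraries left out 8 (5 and 3), leaving out mitochondrial genes and copies 853 (289 and 564), and leaving out mitochondrial genes but not the copies 2029 (212 and 1817). Leaving out single libraries gave 532 to 1668 genes (88 to 260 higher, 444 to 1473 lower), and the fewest calls came without daily library 3; a group of 2 then rests on the spread of the other groups. The replicate block gave 1386 genes (207 and 1179); residuals of libraries with the same number had correlations of -0.12 to 0.106 (median -0.0304), so the numbers were not taken as pairs. Against 217 genes between daily and weekly muscle, array weights gave 4159, the minimum fold 49, only these groups in the fit 78, the replicate block 100, the third libraries left out 10, no mitochondrial genome 350, and single libraries left out 37 to 282. Against 1362 transcripts and 63 usage changes, the replicate block gave 656 and 19, the third libraries left out 29 and 10, single libraries left out 165 to 813 and 15 to 92, and a filter of 5 TPM gave 242 usage changes. Of 265 called genes covered by the naming rule, 144 passed with each single library left out, 181 passed with TMM, and without the third libraries all 265 kept their direction and 246 had an unadjusted p under 0.05. These fits reuse libraries that picked the genes, so they are no independent check. Signs changed for mt-Nd3 (0.14), mt-Co2 (0.20), mt-Atp6 (0.19), mt-Co3 (0.10) and mt-Co1 (0.012) with copies merged, for mt-Co1 also with TMM (0.026) and quantile normalization (0.13), and with quantile normalization for mt-Nd6 (-0.22) and Myf6 (0.028). The causes of these changes were not tested, beyond the addition of copies itself. TPM give no depth, so what depth limits is unknown.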
